A study of Mus musculus with 2 samples.

Results

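The mevalonate and cholesterol synthesis genes described here were 8 enzymes, Hmgcs1, Mvk, Idi1, Fdps, Fdft1, Sqle, Lss and Cyp51, chosen by symbol from the 32285 genes of the count matrices, each of which matched 1 row. Their UMIs, the counted RNA molecules, were compared between WT and N-LKO mice across liver cell classes defined by marker genes. The data were droplet single-cell RNA libraries, 1 labelled WT and 1 labelled N-LKO, and the number of mice behind each is not given in the sources used here. In N-LKO mice, albumin-Cre deletes a loxP-flanked allele of NgBR (the product of Nus1), so that the deletion is driven in hepatocytes. All strains were of the C57BL6 background, and both groups received a Western diet for 16 weeks per the treatment labels, whereas the sample titles say HFD. The WT library is labelled liver and the N-LKO library liver plus tumor. Per the paper, hepatocytes and nonparenchymal cells were mixed in set proportions for both libraries, with tumor cells added for N-LKO. Genotype, tumor tissue and library therefore cannot be told apart, and with 1 library per group there is no test. Ratios carry 95% intervals that cover counting error only and say nothing of the spread between mice.

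In this pathway, HMG-CoA made from acetyl-CoA becomes mevalonate and then isoprenoid diphosphates, and farnesyl diphosphate is the point at which the route to sterols parts from the routes to dolichol, ubiquinone and prenylated proteins. NgBR forms, with Dhdds, the cis-prenyltransferase that extends farnesyl diphosphate toward dolichol. In liver the pathway is under feedback control by sterols: the SREBP-2 factor is released from the endoplasmic reticulum when membrane cholesterol is low and raises transcription of most of its enzymes.

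Positions are those of the GENCODE M21 annotation of GRCm38. Hmgcs1 (chromosome 13, 119690379 to 119708260) makes HMG-CoA and stands at the head of the path. Mvk (chromosome 5, 114444269 to 114460591) phosphorylates mevalonate, and Idi1 (chromosome 13, 8885501 to 8892451) interconverts the isoprenoid building blocks that Fdps (chromosome 3, 89093588 to 89101959) joins into farnesyl diphosphate. Fdft1 (chromosome 14, 63145150 to 63179578) makes squalene and so commits farnesyl diphosphate to sterols. Sqle (chromosome 15, 59315077 to 59331192) oxidises squalene, Lss (chromosome 10, 76531588 to 76557138) closes the ring to lanosterol, and Cyp51 (chromosome 5, 4081145 to 4104746) removes a methyl group from it. The 3' ends of Fdft1 and Cyp51 overlap those of Ctsb and Akap9 on the opposite strand, by 774 and 166 bases, and an antisense gene lies within Hmgcs1 and across the end of Lss. Whether counting used strand is not given in the sources used here.

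RefSeq promoters of GRCm38.p6 were given for 5 of the 8 genes, Hmgcs1, Mvk, Idi1, Lss and Cyp51. The 250 bases before the start site were searched on both strands for the letters TCACNCCAC (a sterol regulatory element core), CCAAT (bound by NF-Y) and GGGCGG (bound by Sp1), which are known from promoters of this pathway. CCAAT was present in 5 of 5 promoters and in 33.8% of all 32851 promoters of this length, and GGGCGG was present in 5 of 5 and in 32.7%. TCACNCCAC was found in Hmgcs1 alone among the 5, and in 1.05% of all promoters. Other forms of the sterol regulatory element were not searched for, so a promoter without these letters may still carry one. Hmgcs1 is shown for carrying all 3 motifs, Mvk for its 5 copies of CCAAT, and Lss as a promoter with 1 copy of CCAAT. Capitals mark the motif letters on either strand.

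Hmgcs1, chr13:119690101-119690350, strand +: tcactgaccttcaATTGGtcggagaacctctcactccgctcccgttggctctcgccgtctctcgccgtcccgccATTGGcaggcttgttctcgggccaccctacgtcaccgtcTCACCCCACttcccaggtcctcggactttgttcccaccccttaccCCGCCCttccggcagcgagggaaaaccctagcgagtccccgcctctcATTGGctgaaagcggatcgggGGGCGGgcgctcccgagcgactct

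Mvk, chr5:114444019-114444268, strand +: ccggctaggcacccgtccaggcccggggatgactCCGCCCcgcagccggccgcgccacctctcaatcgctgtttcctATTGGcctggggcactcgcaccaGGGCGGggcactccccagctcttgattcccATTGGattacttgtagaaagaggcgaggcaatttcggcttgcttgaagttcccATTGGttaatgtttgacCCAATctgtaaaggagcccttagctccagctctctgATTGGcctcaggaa

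Lss, chr10:76531355-76531604, strand +: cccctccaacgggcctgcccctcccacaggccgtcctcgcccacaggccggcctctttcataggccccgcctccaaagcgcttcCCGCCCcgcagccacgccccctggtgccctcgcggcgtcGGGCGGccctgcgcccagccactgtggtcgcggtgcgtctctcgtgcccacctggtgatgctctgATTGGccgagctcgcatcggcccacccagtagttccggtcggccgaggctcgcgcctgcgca

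The N-LKO library held 90147 barcodes and the WT library 100171. Of these, 19851 N-LKO and 18434 WT cells were kept, and 122 of the kept barcodes occurred in both libraries. Hepatocyte-like cells numbered 9955 in WT and 2103 in N-LKO, and the main clusters of each library showed 8 of 8 hepatocyte markers raised. Because cells had been mixed in set proportions before loading, such numbers do not measure the composition of the liver. The 10 classes with at least 100 cells in each library were compared, and clusters that carried markers of more than 1 cell type, the stellate one among them, were left out as mixed. Nus1, the deleted gene, stood at 72.9 counts per 1000000 UMIs (CPM) in WT against 38.8 in N-LKO among hepatocyte-like cells (log2 ratio -0.90, interval -1.14 to -0.68). It was also lower in T/NK-like cells, at 72.5 CPM in WT against 54.6 in N-LKO (-0.41, -0.76 to -0.05). In the remaining classes the interval of its ratio included 0.

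In hepatocyte-like cells the enzymes did not move together. Hmgcs1 and Fdps, and Sqle on few UMIs, were higher in N-LKO than in WT, whereas the intervals of Mvk, Idi1, Fdft1, Lss and Cyp51 included 0. The summed level of the 8 genes was 229 CPM in WT (3852 UMIs) against 289 CPM in N-LKO (1337 UMIs), which gives 0.33 as log2 ratio (0.24 to 0.42). This direction depends on which N-LKO cells are counted as hepatocytes: a cluster of 1993 N-LKO cells, 10.0% of that library with 1 WT cell beside them, had too few raised hepatocyte markers to be named, and with it counted the summed ratio was -0.04.

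**Figure D1:**
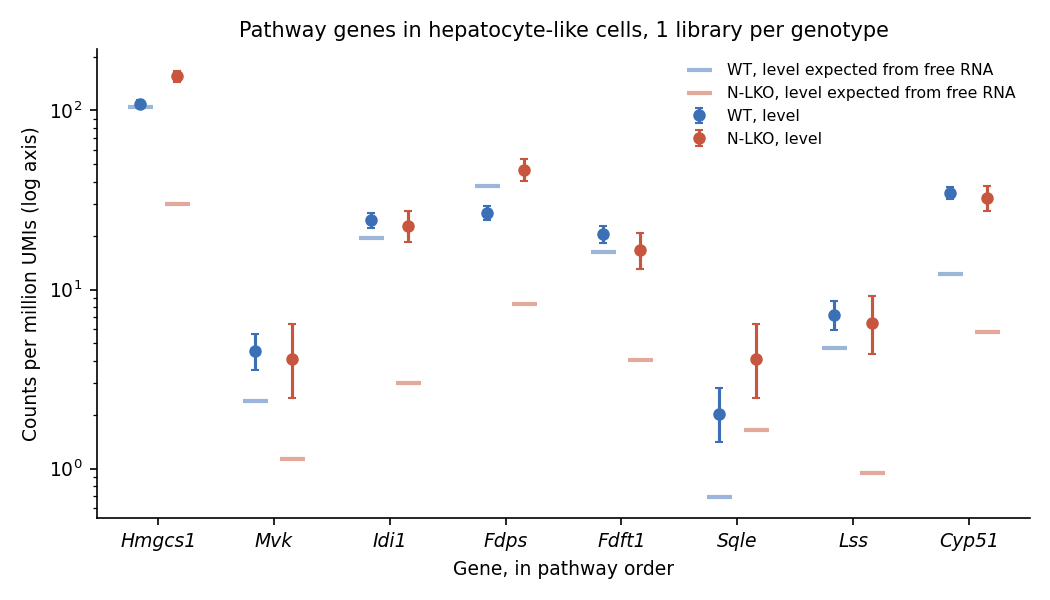
Level of each gene in hepatocyte-like cells, in CPM on a log axis, for the WT and N-LKO libraries. Points carry exact 95% Poisson intervals, horizontal dashes mark the level expected from free RNA, and Hmgcs1 and Fdps are the members whose intervals do not overlap (109 against 156 and 26.8 against 46.6 CPM).

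At the head of the path, Hmgcs1 was counted at 1835 UMIs in WT hepatocyte-like cells and 721 in those of N-LKO, or 109 and 156 CPM. Its log2 ratio was 0.51 (0.38 to 0.64), and it supplied 47.6% of the members' UMIs in WT and 53.9% in N-LKO. Fdps had 26.8 CPM in WT against 46.6 in N-LKO, with a log2 ratio of 0.80 (0.56 to 1.03). Fdps was thus the only one of the 6 members at 5 CPM or more in either library that lay past 1.5-fold. With the unnamed N-LKO cluster counted, the ratio of Hmgcs1 was 0.09 and that of Fdps 0.35, and Fdps was then no longer past 1.5-fold, nor was it with cells thinned to 1000 UMIs (0.45) or a minimum of 500 UMIs (0.55). At 1.5-fold higher, 14.2% of the 9932 genes tested were called, and 1 of 6 members was. At 1.5-fold lower, 8.95% of genes and 0 of 6 members were called.

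Between these enzymes in the path, Idi1 stood at 24.5 CPM in WT against 22.7 in N-LKO (log2 ratio -0.10, -0.43 to 0.20). Mvk, under 5 CPM in both libraries, stood at 4.52 and 4.10 CPM on 76 and 19 UMIs, and its ratio of -0.11 had an interval from -0.95 to 0.60. Neither gene showed a difference beyond counting error. In the sterol branch, Fdft1 stood at 20.3 CPM in WT against 16.6 in N-LKO (-0.29, -0.67 to 0.07). Lss stood at 7.20 and 6.47 CPM (-0.14, -0.78 to 0.43), and Cyp51 at 34.6 and 32.4 CPM (-0.09, -0.37 to 0.16). Sqle had only 34 UMIs in WT and 19 in N-LKO, or 2.02 and 4.10 CPM, and its log2 ratio of 1.04 had an interval from 0.13 to 1.87. The median ratio of the 6 members at 5 CPM or more was -0.10, beside 0.04 over all 9932 genes.

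Several measures of the cells moved with these ratios. Malat1, a nuclear RNA, reached 9122 CPM in WT against 4540 in N-LKO, and without the Malat1-rich and Malat1-poor clusters the summed ratio was 0.38. Mitochondrial RNA made up 19.7% of UMIs in WT and 15.9% in N-LKO, and median depth was 1519 and 1941 UMIs per cell. Free RNA, estimated from marker genes of other cell types, accounted for a share of up to 0.814 of the UMIs of WT hepatocyte-like cells, and 0.384 in N-LKO. Doublets also carry such genes, so these shares are upper estimates. In WT, Fdps at 26.8 CPM lay below the 38.0 CPM that this estimate of free RNA alone would give, and Hmgcs1 at 109 CPM lay little above its 104 CPM. In N-LKO all 8 members lay above their free RNA level. With free RNA subtracted the summed ratio was 1.22, and no ratio is given for Fdps, which had no UMIs left in WT.

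The hepatocyte-like class was made of different clusters in the 2 libraries, and the summed level of the members ran from 139 to 502 CPM over WT cells of different clusters. The main WT cluster held 8180 WT and 90 N-LKO cells and the main N-LKO cluster, led by A2ml1, Spink1, Orm1 and Saa2, held 1989 N-LKO and 116 WT cells. The summed level of the 8 genes was 217 CPM (209 to 224) in WT cells of the main WT cluster and 293 CPM (277 to 309) in N-LKO cells of the main N-LKO cluster. The 116 WT cells of the main N-LKO cluster stood higher than either, at 502 CPM (414 to 604, 113 UMIs). Within that cluster the ratio of N-LKO to WT cells was therefore below 0, at -0.78 (-1.06 to -0.49), opposite in direction to the ratio of the whole class. Idi1 (66.7 CPM in WT against 23.0 in N-LKO), Cyp51 (71.1 against 32.7), Hmgcs1 (244 against 158) and Fdps (84.5 against 47.2) were each lower in its N-LKO cells with intervals below 0. In the main WT cluster the N-LKO cells had only 31 member UMIs, and the ratio of -0.12 had an interval from -0.70 to 0.36.

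Among the other WT clusters, the Malat1-poor one (1180 cells, 1524 CPM of Malat1) had a summed level of 333 CPM, with Hmgcs1 at 187, Idi1 at 49.6 and Fdps at 53.8 CPM. Cyp51 went the other way there and stood at 12.6 CPM, against 37.0 CPM in the main WT cluster (log2 ratio -1.52, -2.33 to -0.88). The Malat1-rich WT cluster (320 cells, 35740 CPM of Malat1) had the lowest summed level, 139 CPM (112 to 171). A cluster of 159 WT cells with Glul, the glutamine synthetase of hepatocytes next to the central vein, among its leading genes had 342 CPM (273 to 423). The Malat1-poor and Glul clusters did not differ beyond counting error in the summed level.

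The unnamed cluster of 1993 N-LKO cells had 20130 CPM of Malat1, 4172 CPM of Alb and 2521 CPM of Cps1. In the main N-LKO cluster Alb stood at 16331 CPM and Cps1 at 1775 CPM. N-LKO cells of the mixed clusters had 2495 to 3930 CPM of Alb and 261 to 624 CPM of Cps1. Nus1 was 27.7 CPM (22.7 to 33.5) in the unnamed cluster and 38.6 CPM (33.0 to 44.8) in the main N-LKO cluster. Whether the unnamed cells are hepatocytes was not tested. The summed member level of the unnamed cluster was 145 CPM (133 to 157), against 293 CPM in the main N-LKO cluster (log2 ratio -1.02, -1.17 to -0.88). Hmgcs1 at 67.9 CPM, Fdps at 19.3 CPM, Cyp51 at 14.4 CPM and Idi1 at 11.2 CPM were all lower there. Sqle, often named as a rate-limiting enzyme of the sterol branch, went the opposite way. It stood at 14.6 CPM (11.1 to 19.0, 56 UMIs) in the unnamed cluster and 4.06 CPM in the main N-LKO cluster, a log2 ratio of 1.82 (1.06 to 2.70), where the median over all genes was 0.65. With the unnamed cluster counted among the hepatocyte-like cells, the Sqle ratio of N-LKO over WT was 2.12.

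**Figure D2:**
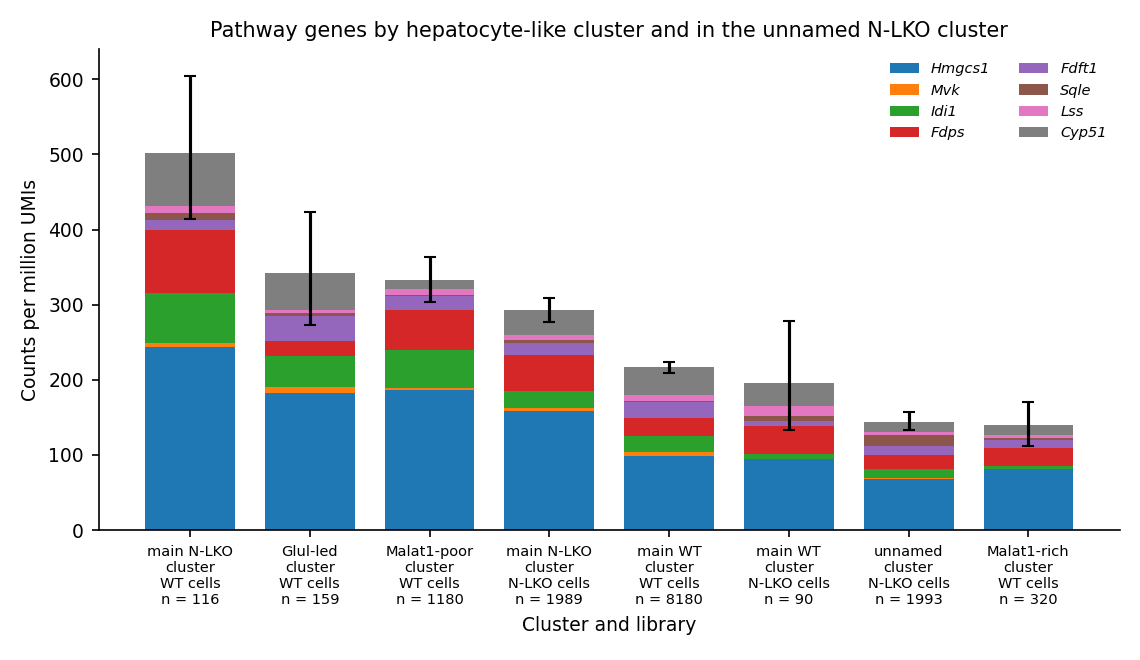
Stacked levels of the 8 genes in CPM, for each hepatocyte-like cluster and library with at least 50 cells and for the unnamed N-LKO cluster, ordered by their sum. Black bars are exact 95% Poisson intervals of the sum, which ran from 502 CPM in the WT cells of the main N-LKO cluster to 139 CPM in the Malat1-rich WT cluster.

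Outside the hepatocyte-like cells the members were lower in N-LKO. The summed ratio was below 0 in 9 of 9 other classes, and its interval lay below 0 in 8 of them. It ran from -0.31 in dendritic-like cells (202 CPM in WT, 163 CPM in N-LKO, interval -0.73 to 0.13) to -1.37 in cholangiocyte-like cells (355 and 138 CPM, -1.75 to -0.98). The dendritic-like value rests on the clustering, and was -0.90 in the first of the 2 clusterings that were run, where a further cluster of 733 WT and 1783 N-LKO cells was named dendritic-like. Macrophage-like cells stood at 155 and 100 CPM (-0.63), endothelial-like cells at 174 and 125 CPM (-0.48), and T/NK-like cells at 189 and 117 CPM (-0.70). Plasmacytoid-like cells stood at 322 and 161 CPM (-1.00). The N-LKO interval of the summed level lay wholly below the WT interval in each of these last 4 classes.

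The barcodes with under 500 UMIs, which were taken to hold mostly free RNA, moved in the same direction: the summed level there was 243 CPM in WT (232 to 254) against 143 in N-LKO (133 to 153). In these barcodes Idi1 was 23.8 CPM in WT against 7.87 in N-LKO and Fdps 46.7 against 21.6, whereas Cyp51 was 14.9 and 15.1 CPM and Sqle was 0.857 and 4.26 CPM. With free RNA subtracted, the summed ratio was -0.03 in dendritic-like and -0.04 in endothelial-like cells, that of macrophage-like cells was -0.42, and that of cholangiocyte-like cells was -1.76. The part of free RNA in each single ratio was not tested further.

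**Figure D3:**
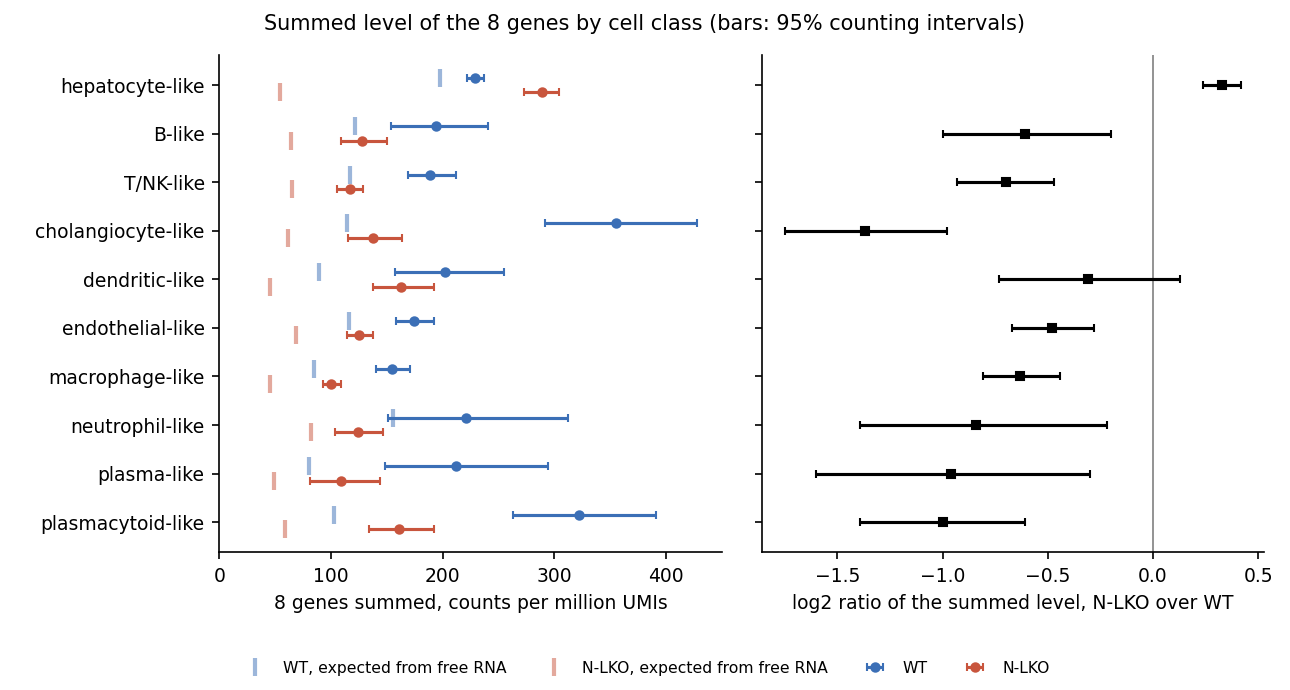
Left, summed level of the 8 genes in CPM by cell class in the WT and N-LKO libraries, with 95% counting intervals and ticks for the level expected from free RNA. Right, the log2 ratio of N-LKO over WT with its 95% interval, above 0 in hepatocyte-like cells (0.33) and below 0 in the other 9 classes.

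The members took unequal parts in these lower levels. Idi1 passed 5 CPM in 9 of 9 other classes, had a ratio below 0 in 9 and an interval below 0 in 6, with ratios from -3.36 to -0.76. In endothelial-like cells it had 57 UMIs in WT and 21 in N-LKO (log2 ratio -1.96, -2.77 to -1.23). Fdps was lower in 9 of 9 classes, with intervals below 0 in 7, among them macrophage-like cells (21.2 CPM in WT, 10.6 in N-LKO). The WT interval of Fdps there included the 16.3 CPM expected from free RNA. The same held in endothelial-like and T/NK-like cells (22.4 and 22.5 CPM expected). In WT dendritic-like, neutrophil-like, plasma-like and plasmacytoid-like cells Fdps lay above its free RNA level. Hmgcs1 was lower in 7 of 9 classes, with intervals below 0 in 5, the lowest ratio being -1.25 in plasmacytoid-like cells. Fdft1 had intervals below 0 in 4 classes and Cyp51 in 3. For Mvk, Lss and Sqle the counts were small, at most 16 UMIs in any of these classes and libraries, and Lss (B-like cells, 4 and 1 UMIs) and Sqle (plasmacytoid-like cells, 11 and 9 UMIs) each had 1 interval below 0. Sqle in endothelial-like cells, under 5 CPM on 1 and 11 UMIs, had one above 0 (log2 ratio 2.40, 0.14 to 8.35).

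Among the 6 classes with at least 100 member UMIs in each library, counts past 1.5-fold were read against all genes of the class. In T/NK-like cells 5 of 6 members at 5 CPM or more were lower, with 18.1% of genes lower, and none was higher, with 23.7% of genes higher. In macrophage-like cells 4 of 5 were lower (14.9% of genes) and none was higher (10.9%). In endothelial-like cells 3 of 6 were lower (17.2%) and 1, Cyp51 with an interval from -0.15 to 1.61, was higher (22.8%). In cholangiocyte-like cells the 7 members with a ratio were all lower (23.6% of genes, or 20.2% of those over 3 UMIs in a library) and none was higher (22.6%, or 23.6%), and Mvk, on 2 UMIs in each library, is given no ratio. In plasmacytoid-like cells 5 of 7 were lower (25.0%, or 20.8% of genes over 3 UMIs) and 1, Lss on 1 and 6 UMIs, was higher (23.7%, or 25.1%). Some of the lower calls had intervals that reached 0. These were Lss in T/NK-like cells, Mvk in endothelial-like cells and Idi1 in plasmacytoid-like cells. In cholangiocyte-like cells they were Fdps, Sqle and Lss, the last on 2 and 4 UMIs. The other lower calls had intervals below 0.

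Within each library, hepatocyte-like cells were compared with the other 9 classes. In WT the summed level of the members was higher in hepatocyte-like cells than in 3 classes and lower than in 2, with the other 4 within counting error. In N-LKO it was higher than in 9 of 9. Fdps showed the widest contrast: in WT it was lower in hepatocyte-like cells than in 4 classes and higher than in none, and in N-LKO it was higher than in 8. Those 4 WT classes had 10 to 24 UMIs of Fdps each. The 26.8 CPM of Fdps in WT hepatocyte-like cells lay below the 38.0 CPM expected from free RNA. Sqle was lower in hepatocyte-like cells than in 3 other classes in each library.

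Other genes of sterol metabolism were grouped by role in the hepatocyte-like cells. Of 13 further enzymes of the path, 12 stood at 5 CPM or more, 4 of these were past 1.5-fold lower and 0 higher. All 4 act late in the path, after lanosterol: Msmo1 (32.9 CPM in WT, 20.9 CPM in N-LKO), Hsd17b7 (35.6 and 19.4), Sc5d (391 and 223) and Dhcr7 (20.1 and 12.9). Their log2 ratios lay between -0.87 and -0.62, with intervals below 0.

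Of 7 genes of sterol sensing, 2 were past 1.5-fold lower and 0 higher. Srebf1, whose product drives fatty acid synthesis, stood at 170 CPM in WT against 48.8 in N-LKO (log2 ratio -1.80, -2.01 to -1.61). Insig1, which holds the SREBP complex in the endoplasmic reticulum and is itself a target of it, stood at 262 and 74.7 CPM (-1.81, -1.98 to -1.66). Srebf2, which encodes the factor for the cholesterol enzymes, was 21.3 and 21.1 CPM.

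Of 6 genes of uptake and intracellular transport, 1 was higher and 1 lower. Npc2, a lysosomal cholesterol carrier, stood at 58.1 CPM in WT against 90.0 in N-LKO, and Stard4, a cytosolic sterol carrier, at 51.6 and 20.9 CPM. The WT interval of Npc2, 54.5 to 61.8 CPM, included the 55.7 CPM expected from free RNA, whereas in N-LKO 35.9 CPM was expected. Of 10 genes of efflux, storage and disposal, 4 were lower and 0 higher. These were the biliary sterol exporters Abcg5 (94.8 and 42.3 CPM) and Abcg8 (130 and 41.2 CPM), the cholesterol-esterifying Soat2 (15.7 and 10.4 CPM), and Cyp8b1 of bile acid synthesis (159 and 64.3 CPM).

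Of 10 genes on other branches from farnesyl diphosphate, 9 stood at 5 CPM or more, 1 of these was higher and 2 were lower. Srd5a3, which makes dolichol from polyprenol, stood at 7.38 CPM in WT against 12.1 in N-LKO (log2 ratio 0.72, 0.23 to 1.18). Besides Nus1, Dolk, which phosphorylates dolichol, was lower at 5.18 and 3.02 CPM, with an interval from -1.71 to 0.05. The median ratio of the 5 lists ran from -0.30 to 0.03, beside 0.04 over all genes, and the share of all genes past 1.5-fold was that given above.

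**Figure D4:**
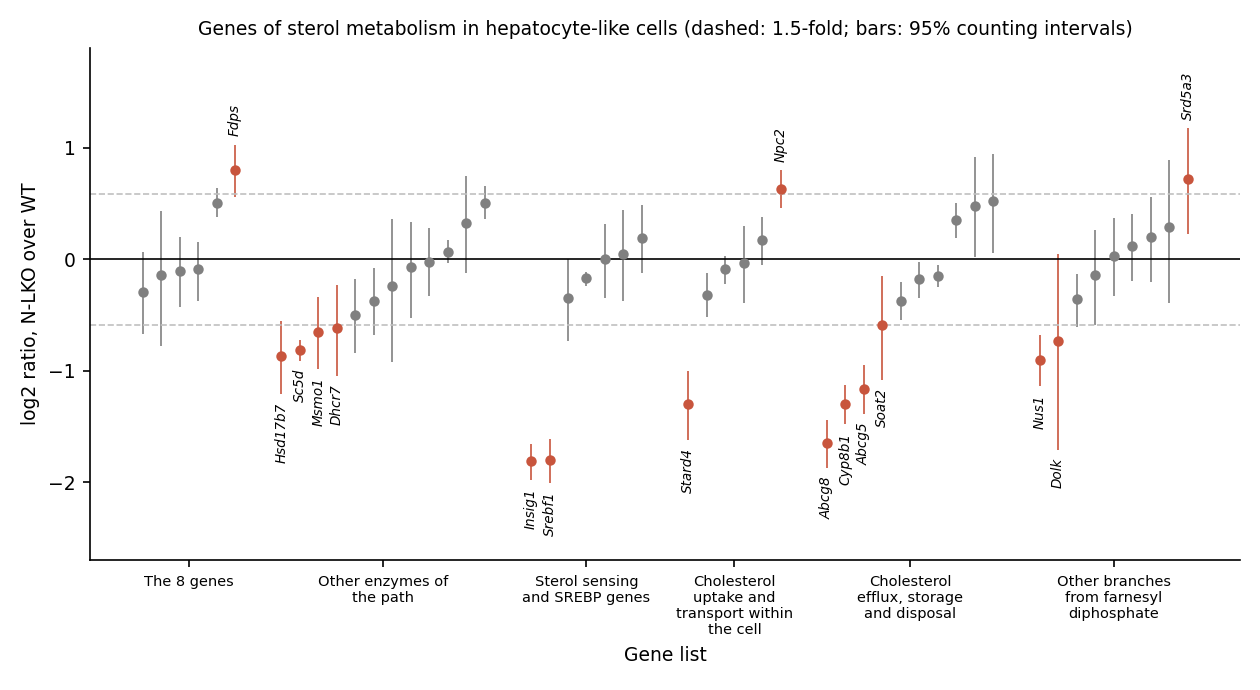
log2 ratio of N-LKO over WT in hepatocyte-like cells for genes at 5 CPM or more, by list, with 95% counting intervals. Colored points lie past 1.5-fold (dashed lines) and are named; Insig1 and Srebf1 lie lowest at -1.81 and -1.80, and Fdps is the one such point among the 8 genes.

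Genes of short genomic span had higher ratios than long ones in hepatocyte-like cells, from a median log2 ratio of 0.32 in the shortest of 10 equal groups to -0.11 in the longest. The members span 6.95 to 34.4 kb. Set against the median of genes of the same group, Hmgcs1 lay 0.46 above it and Fdps 0.60 above it, and Idi1 and Fdft1 lay at -0.30 and -0.29.

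Over the 20 profiles of class and library, the members were related to each other to different degrees. Idi1 had a Pearson r of 0.84 with the mean of the other 7 members, Cyp51 0.70 and Fdps 0.62, whereas Hmgcs1 had 0.20 and Sqle 0.21. Of 6550 other genes at 5 CPM or more in every profile, the most alike to the mean of the members were Bccip (0.83), Mrpl24 (0.82), Park7 (0.82), Ech1 (0.82) and Ppa2 (0.81). The profiles of a library share its free RNA, and members at few UMIs have noisy profiles.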

How the data were processed

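Single-cell suspensions of the WT and N-LKO livers were run with the 10x Genomics 3' v3 kit, and the authors deposited unnormalised UMI counts per gene and barcode, 1 matrix per library. The file headers name Cell Ranger 7.1.0. The submitters' processing notes name mm9 and Seurat, and the annotation and the treatment of intronic reads are not given in the sources used here. Gene positions, spans and promoters were taken from GRCm38 and joined by gene identifier or symbol, not by coordinate.

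Barcodes with at least 1000 UMIs, at least 400 genes and at most 30% mitochondrial UMIs were kept, and those with a Scrublet score over 0.25 (scanpy 1.11.5) were removed. Both libraries were clustered together without integration on 30 principal components of 2000 variable genes, with a shared-neighbor graph of 20 neighbors and Leiden clustering (leidenalg 0.10.2) at resolution 0.3. The clustering was run 2 times. The first run used 1 seed and 4 iterations. After its cluster names and the members' levels in its clusters had been looked at, it was replaced by the highest-quality partition of 5 seeds, to see whether the stellate cluster would separate, which it did not. The first run is given among the alternatives. A cluster was named X-like from fixed markers when its marker score was at least 0.2 with at least 3 markers raised 2-fold, and was called mixed when an unrelated type reached over 0.6 of that score. This gave 23 clusters, 17 of them named.

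UMIs were summed per class and library and given as CPM with exact 95% Poisson intervals. The log2 ratio of N-LKO over WT had 0.5 UMI added to each sum and an exact conditional binomial interval. Genes at 5 CPM or more in at least 1 library entered counts past 1.5-fold, and no ratio was given where neither library had over 3 UMIs. Free RNA was profiled from barcodes under 500 UMIs, which were assumed to hold mostly free RNA. That assumption was not tested. The free RNA share of a class was the level of other cell types' markers relative to that profile. This ratio of sums was settled on after the spread of single-gene ratios had been seen. The ratio and interval code was tested on simulated counts. Cells are not replicates, and each group has 1 library, so no test was made.

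The 8 members and Nus1 are named in the classes, and genes of the 5 wider lists are named where they lie past 1.5-fold in hepatocyte-like cells or where a result turns on them. In the list of uptake and transport, 2 further genes are not reported here. The members and lists were chosen with earlier results of these data known.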

Additional observations from a re-analysis of the deposited data

Results flagged for a closer look

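Hmgcs1 and Fdps moved in opposite directions in different cell classes, each with an interval that excluded 0. The log2 ratio of N-LKO over WT for Hmgcs1 was 0.51 in hepatocyte-like cells, and it was -0.46 in T/NK-like, -0.87 in cholangiocyte-like, -0.37 in endothelial-like, -0.40 in macrophage-like and -1.25 in plasmacytoid-like cells. For Fdps it was 0.80 in hepatocyte-like cells, and it was -0.83 in T/NK-like, -1.16 in dendritic-like, -0.87 in endothelial-like, -1.00 in macrophage-like, -2.15 in neutrophil-like, -3.02 in plasma-like (10 and 3 UMIs) and -1.19 in plasmacytoid-like cells. In WT, the interval of Fdps included its free RNA level in T/NK-like, endothelial-like and macrophage-like cells. It lay below that level in WT hepatocyte-like cells, and above it in the other WT classes named here for Fdps. The hepatocyte-like values rest on which cells are counted: with the unnamed N-LKO cluster added they were 0.09 for Hmgcs1 and 0.35 for Fdps, and within the main N-LKO cluster both genes were lower in N-LKO than in WT cells, at -0.64 and -0.87. With 1 library per group, the difference between classes was not tested.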

How the results depend on the processing

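The summed ratio of hepatocyte-like cells, 0.33, stayed above 0 under 12 of 13 alternatives. It was 0.22 with a minimum of 500 UMIs and 1.22 with free RNA subtracted. Of the 3 alternatives chosen after seeing the data, it was -0.04 with the unnamed N-LKO cluster counted, 0.44 between the largest clusters alone, and 0.33 in the first clustering, which held the same number of hepatocyte-like cells, 9955 and 2103. The median ratio, -0.10, was 0.09 with cells thinned to 1000 UMIs, 0.14 with free RNA subtracted and -0.48 with the unnamed cluster counted. The number of members past 1.5-fold higher, 1, was 0 with a minimum of 500 UMIs or thinned cells, and 2 with a minimum of 2000 UMIs, free RNA subtracted, the Malat1-rich and Malat1-poor clusters left out, or the largest clusters alone. The number lower, 0, was 2 with free RNA subtracted, where Sqle was also reversed, at -0.31.

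The summed ratio stayed below 0 in the other 9 classes under every alternative that gave a value. In dendritic-like cells, -0.31, it was -0.92 with a mitochondrial limit of 10%, -0.86 with no limit, -0.82 without doublet removal and -0.90 in the first clustering, and it was nearer 0 with free RNA subtracted, at -0.03, and against genes of the same span, at -0.19. With free RNA subtracted it was -1.76 in cholangiocyte-like, -0.04 in endothelial-like and -0.42 in macrophage-like cells, and against genes of the same span it was -0.44 in macrophage-like cells. The cause of these shifts was not tested. The 10% limit left too few N-LKO hepatocyte-like cells for a value, and it gave a value for dendritic-like cells only. A minimum of 2000 UMIs gave a value for hepatocyte-like cells only, and a minimum of 500 UMIs gave none for dendritic-like cells. Depth limits Mvk, Sqle and Lss most. No paired analysis was possible because each group has 1 library.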
